A study of Mus musculus with 27 samples.

Results

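The cytochrome P450 genes of the mouse esophagus were examined from the simple columnar epithelium of the embryo to the keratinized squamous epithelium of the adult, and in mice without Nrf2, Keap1 or both. Members were all array genes named in the Cyp1a1 style, that is Cyp, a family number, a subfamily letter and a gene number. By name, 113 probes of 78 genes matched, of 28144 genes and unnamed features on the array. Kept were 61 genes, each with at least 1 probe that exceeded background well in the esophagus channel on 3 or more of the 27 arrays. By role, 33 of the kept genes metabolize drugs, toxicants and related compounds, 17 act on fatty acids and eicosanoids, 3 on vitamin D, 3 on sterols and bile acids, 2 on retinoic acid and 2 on steroid hormones, and Cyp20a1 is an orphan. The 17 genes that were not kept were Cyp1a2, Cyp2a12, Cyp2b23, Cyp2c38, Cyp2c39, Cyp2c54, Cyp2d13, Cyp2d34, Cyp4a29, Cyp4a31, Cyp4f14, Cyp7a1, Cyp8b1, Cyp11a1, Cyp11b2, Cyp19a1 and Cyp24a1. Of the kept genes, 37 were read by 1 probe and 24 by 2 or more.

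P450 enzymes are heme proteins that insert oxygen into small hydrophobic molecules, drawing electrons from P450 oxidoreductase (Por) in the endoplasmic reticulum or from ferredoxin in mitochondria. Families CYP1 to CYP3 are best known from the liver, where nuclear receptors and the aryl hydrocarbon receptor (Ahr) induce them, and several members are also made in surface epithelia of the airway, skin and gut. Other families make or remove signals: CYP26 enzymes break down retinoic acid, a vitamin A derivative that opposes squamous differentiation, and CYP4F enzymes hydroxylate the very long fatty acids of the skin lipid barrier. Nrf2, encoded by Nfe2l2, switches on detoxifying genes, and Keap1 holds it in check.

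Each of the 9 groups had 3 arrays. Wild-type C57BL/6J mice gave whole esophagi at 4 stages, from E11.5 and E15.5 in the embryo to birth (P0) and P7, which span the metaplasia phase in which columnar epithelium becomes squamous. Whole esophagi of Nrf2-/-, Keap1-/- and Nrf2-/-Keap1-/- mice on the C57BL/6J background were taken at P7. Adults of 8 weeks, either wild-type or Nrf2-/-, gave the epithelium of the esophagus and close the maturation phase. The null alleles were carried in the whole animal, so a difference at P7 could arise in any tissue of the esophagus. All esophagus RNA was labelled with Cy5 and hybridised against a Cy3-labelled reference RNA pooled from 11 mouse cell lines, with no dye swap. A value is the log2 ratio of esophagus to reference for 1 gene, averaged over its probes, and a step of 1 is a factor of 2. A ratio ranks samples for a gene, not genes against each other. Differences between groups are given in log2 units with the standard error (SE) and limma's p-value adjusted by Benjamini-Hochberg over all features tested, and a gene was called at an adjusted p of 0.05 or lower. The labels name biological replicates but no animals or litters, so p-values measure the spread between these samples. In whole tissue, fewer cells of a type and less RNA per cell cannot be told apart.

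Median Cy5 intensity was 81.8 to 226 and 58.3% to 68.7% of probes were well above background on an array. Median Cy3 intensity, that of the reference, was 115 to 386 and was lowest on the Keap1-/- arrays (147, 115 and 145). Spots marked as outliers made up 1.85% to 3.72% on these arrays and 8.83% to 14.2% on the other P7 arrays. Squamous epithelium markers were well above background at P0 and later, with 7 or 8 of 8 on every array, and 6 or 7 of 8 on the embryonic arrays. Nfe2l2 was lower by the label in every Nrf2-null group, with differences of -3.63 in Nrf2-/-, -3.86 in Nrf2-/-Keap1-/- and -4.3 in the adult. The Keap1 probes gave a weaker check, at -0.45 (adjusted p = 0.145) in Keap1-/- and -0.99 (adjusted p = 0.0795) in Nrf2-/-Keap1-/-, and where they lie relative to the deletion is not given in the sources used here. Some arrays stood apart from the rest. The array labelled E11.5 replicate 3 correlated at 0.77 to 0.83 with the other E11.5 arrays and at up to 0.98 with an E15.5 array. The array labelled E15.5 replicate 1 correlated at 0.8 to 0.81 with its own group and at up to 0.96 with an E11.5 array. Counts of calls for the steps that use embryonic arrays are therefore given with all arrays and without both of these, together with the values of the leading genes. No other group shared the slide or the scan day of the 3 Keap1-/- arrays, and no other P7 group shared their version of the scanner software. Genotype, slide, scan and software therefore cannot be told apart in their comparisons.

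Across 10 comparisons of 2 groups, 39 of the 61 genes were called at least once and 22 were called in none. Of the 58 genes tested in any of them 67.2% were called at least once, beside 66.7% of all features tested, so the share was near the background. Cyp2a22 and Cyp4f39 were called in 5 comparisons, and Cyp2a4, Cyp2a5, Cyp2d26 and Cyp2s1 in 4. The 22 that were never called include Cyp1b1, Cyp2e1, Cyp2u1, Cyp3a11, Cyp17a1, Cyp27b1 and Cyp46a1.

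**Figure D1:**
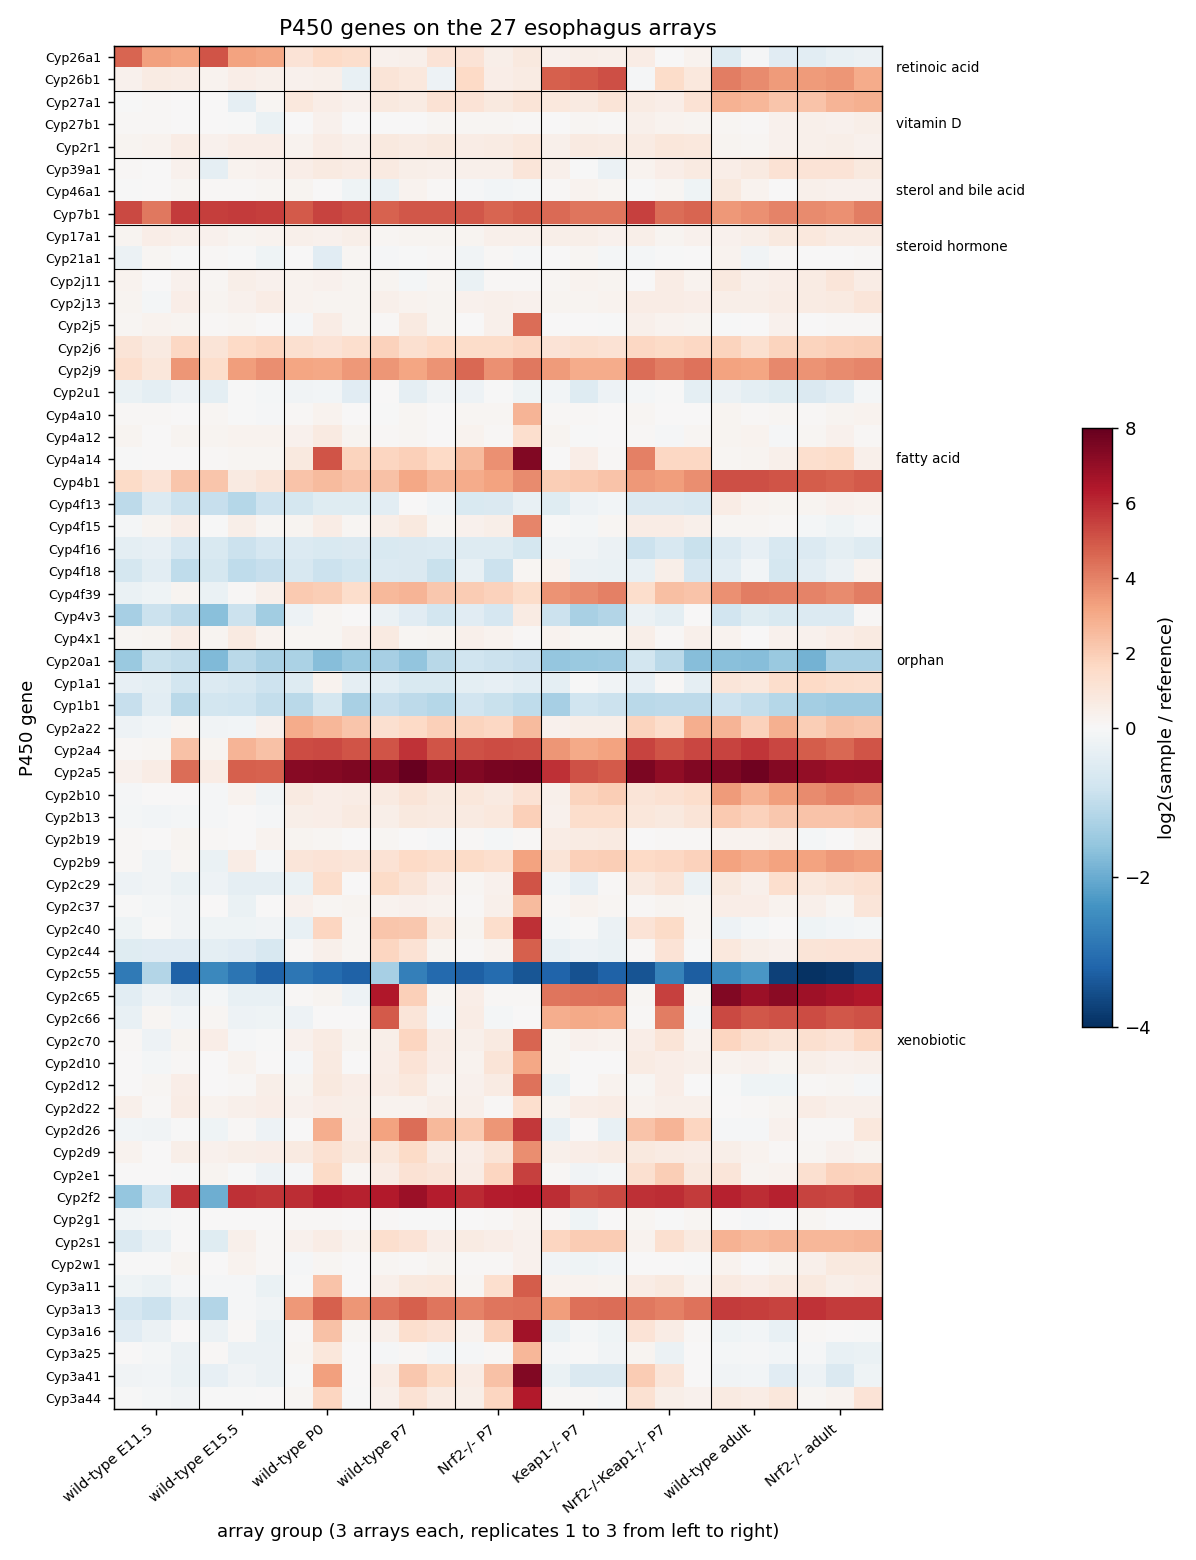
Heat map of the log2 esophagus to reference ratio of the 61 cytochrome P450 genes (rows, ordered by role) on the 27 arrays (columns, ordered by group). The colour scale runs from -4 to 8 with a different slope on either side of 0, and a reader should see the gain of Cyp2a4, Cyp2a5, Cyp2f2 and Cyp3a13 by P0, the high Cyp26b1 of the Keap1-/- and adult arrays, and the single Nrf2-/- P7 array on which 28 genes exceed every other P7 array.

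The bases upstream of 5 genes are shown because these genes were higher in Keap1-/- esophagus, the state in which Nrf2 is released from its inhibitor. They are taken from the 250 bases before the transcript start listed for each gene, from RefSeq (build GRCm38.p6). For Cyp26b1, Cyp4f39 and Cyp4f16 that start lies inside the RefSeq gene, and the printed stretch stops where the gene begins, after 152, 224 and 238 bases. Capitals mark GCGTG, the core letters of the Ahr binding site, read on the printed strand as GCGTG or as CACGC where it lies on the opposite strand. Cyp26b1 lies at chr6:84593909-84594060 on the minus strand, Cyp4f39 at chr17:32452473-32452696 on the plus strand, Cyp2s1 at chr7:25816526-25816775 on the minus strand, Cyp2b19 at chr7:26756892-26757141 on the plus strand and Cyp4f16 at chr17:32536307-32536544 on the plus strand.
Cyp26b1: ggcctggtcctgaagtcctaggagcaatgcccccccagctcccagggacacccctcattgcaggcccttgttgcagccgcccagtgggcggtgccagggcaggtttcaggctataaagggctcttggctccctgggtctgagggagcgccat
Cyp4f39: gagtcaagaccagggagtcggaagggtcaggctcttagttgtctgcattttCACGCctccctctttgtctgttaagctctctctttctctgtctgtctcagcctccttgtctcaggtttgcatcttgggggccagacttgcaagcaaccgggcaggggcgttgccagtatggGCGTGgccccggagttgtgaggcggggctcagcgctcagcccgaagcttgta
Cyp2s1: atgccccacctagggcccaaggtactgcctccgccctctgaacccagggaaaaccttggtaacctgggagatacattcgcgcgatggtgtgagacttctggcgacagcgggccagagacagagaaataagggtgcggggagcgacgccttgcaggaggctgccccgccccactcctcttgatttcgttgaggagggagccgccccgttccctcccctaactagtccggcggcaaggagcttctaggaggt
Cyp2b19: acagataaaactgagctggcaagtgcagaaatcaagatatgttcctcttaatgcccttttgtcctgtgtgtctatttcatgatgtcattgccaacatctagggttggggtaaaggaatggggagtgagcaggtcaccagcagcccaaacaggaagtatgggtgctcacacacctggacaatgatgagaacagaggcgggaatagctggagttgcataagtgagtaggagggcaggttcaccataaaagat
Cyp4f16: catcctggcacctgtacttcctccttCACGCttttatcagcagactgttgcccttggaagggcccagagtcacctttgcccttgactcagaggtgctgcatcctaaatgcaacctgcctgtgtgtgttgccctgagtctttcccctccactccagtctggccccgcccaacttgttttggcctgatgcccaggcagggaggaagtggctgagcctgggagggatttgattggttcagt
None of the 5 windows of 250 bases holds TGACNNNGC, the core letters of the antioxidant response element that Nrf2 binds, on either strand. Over all 32851 such windows, 10.2% hold TGACNNNGC, and of 50 promoters found for 48 members 1 did, that of Cyp4f18. GCGTG occurs in 28.2% of all promoters and in 12 of the 50 member promoters. Cyp4f39 holds it at 199 and 78 bases before the listed start and Cyp4f16 at 224 bases before it. A match is a description of letters, not of binding, and no match says only that these letters are not in this window.

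E11.5 to E15.5 is the early metaplasia phase, in which the epithelium becomes layered. With all arrays, no P450 gene was called between these stages (0 of 56 tested, and 0% of all features), and 1 had an unadjusted p under 0.05. Within both labels the values fell into separate levels. Cyp2f2, which oxidizes naphthalene in airway club cells, was at -1.55, -0.79 and 5.77 on the E11.5 arrays and at -1.95, 5.86 and 5.7 on the E15.5 arrays. Cyp2a5, a coumarin hydroxylase, was at 0.32, 0.62 and 4.46 against 0.58, 4.76 and 4.71. In each case the third E11.5 array sat with the high E15.5 arrays and the first E15.5 array with the low E11.5 arrays.

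Without these arrays, 6 P450 genes were called, where 13.8% of all features were called, in a design with 2 arrays a group. Cyp2f2 was higher at E15.5 by 6.95 (SE 0.27, adjusted p = 3.28e-06), Cyp2a5 by 4.26 (SE 0.26, adjusted p = 2.06e-05), Cyp2j9 by 2.43 (SE 0.21, adjusted p = 9.9e-05) and Cyp2a4, a testosterone hydroxylase, by 2.42 (SE 0.24, adjusted p = 0.000231). Cyp2j6 was higher by 0.79 and Cyp4f16 lower by a difference of -0.41. Other markers moved along the same arrays. The cilia regulator Foxj1 was at 0.74, 0.29 and 4.49 at E11.5 and at 0.99, 4.5 and 4.19 at E15.5. Alb, the defining liver marker, was at 0.67, 0.31 and 3.38 against 0.59, 3.21 and 3.11. The mean of 7 liver markers was at 0.02, 0 and 1.49 against 0.04, 1.29 and 1.29. Fgb and Ahsg moved with Alb, whereas Fga, Ttr and Apob stayed between -0.23 and 0.26 on these arrays, and Apoa1 reached at most 0.65. The mean of 7 lung and airway markers, Foxj1 among them, was at 0.1, 0.14 and 0.96 at E11.5 and at 0.14, 1.19 and 1.04 at E15.5, with 2 to 4 of the 7 above background on an array. Scgb3a2 and Sftpc moved with Foxj1 by less, whereas Scgb1a1 was at -0.15, -0.02 and -0.3 at E15.5. Nkx2-1, Sftpb and Sftpa1 were not above background on any embryonic array. The part of other cell types in this step was not tested.

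**Figure D2:**
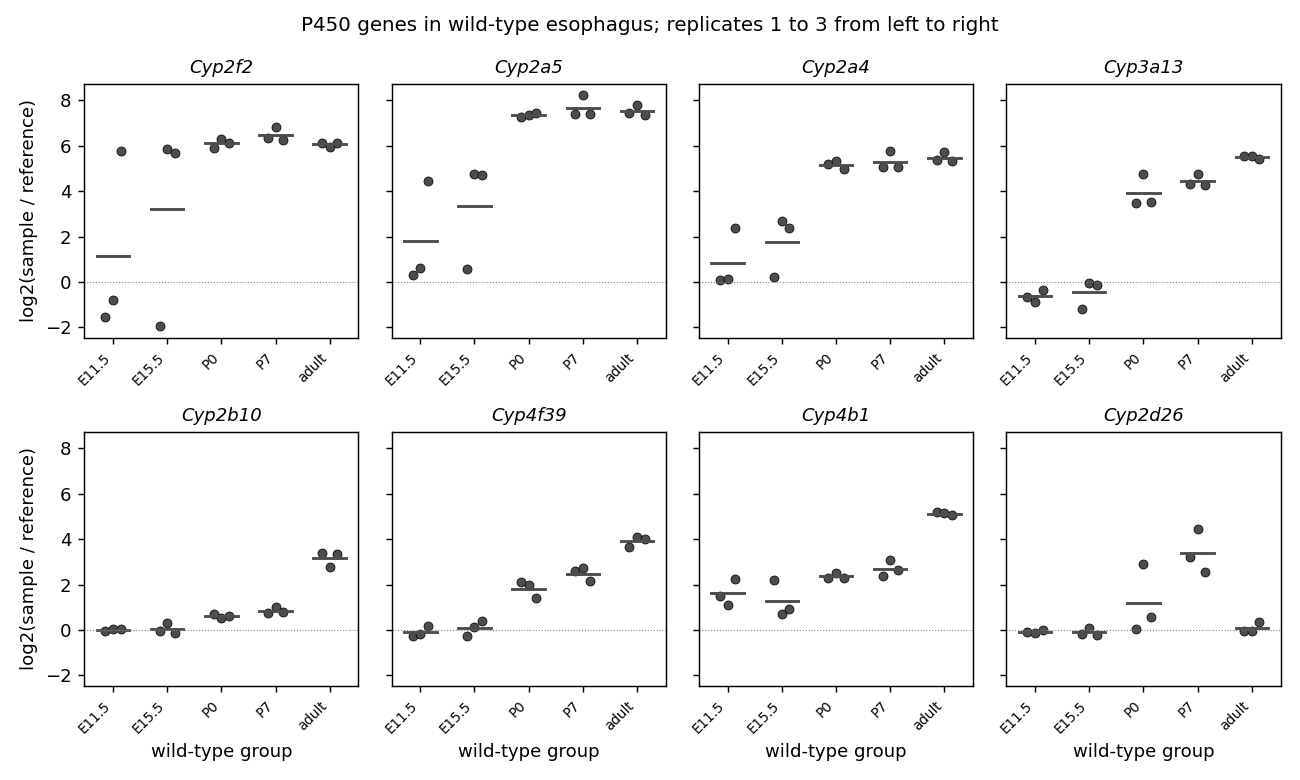
Log2 esophagus to reference ratio of 8 P450 genes on each wild-type array at E11.5, E15.5, P0, P7 and in the adult, with points for arrays and bars for group means of 3. Cyp2f2, Cyp2a5 and Cyp2a4 each show a pair of levels within both embryonic labels, Cyp3a13 is low on all embryonic arrays and at 3.46 or higher from P0, and Cyp2d26 is high at P7 and between -0.05 and 0.37 in the adult.

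From E15.5 to P0, 10 P450 genes rose and the retinoic acid hydroxylase Cyp26a1 fell. Of 56 genes tested, 11 were called (19.6%, beside 19.7% of all features), a share near the background. Of all features, 11.3% were higher and 8.42% lower. In the deposited ratios, which carry the scanner software's own normalization, 8 were higher and 2 lower. The share of all features called there is not given here. The calls lost there included Cyp2a5 (1.77, adjusted p = 0.333), Cyp2a4 (2.28, adjusted p = 0.155), Cyp2b9 (1.5, adjusted p = 0.0691) and Cyp27a1 (1.11, adjusted p = 0.123). In the main fit, by role, 7 of 30 xenobiotic genes, 2 of 16 fatty acid genes and 1 of 3 vitamin D genes rose, and 1 of 2 retinoic acid genes fell. The median difference of the members was 0.31, against -0.01 over all features.

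Cyp3a13, a CYP3A member found in the gut wall, gave the largest rise. It was at -1.17, -0.04 and -0.15 at E15.5 and at 3.46, 4.75 and 3.52 at P0, with no overlap, a difference of 4.36 (SE 0.37, adjusted p = 5.06e-05), and of 4.01 without the doubted arrays. Cyp2a5 went from 0.58, 4.76 and 4.71 to 7.26, 7.34 and 7.45, a difference of 4 (SE 1.2, adjusted p = 0.0398). The Cyp2a5 call depended on single arrays: it was lost without E15.5 replicate 1 alone (2.61, adjusted p = 0.113) and without any P0 or P7 array (adjusted p between 0.0511 and 0.105), and it was kept without both doubted arrays (2.61, adjusted p = 0.000139). Cyp2a4 went from 0.24, 2.69 and 2.37 to 5.22, 5.31 and 5, a difference of 3.41 (SE 0.68, adjusted p = 0.00698), and of 2.65 without the doubted arrays. Cyp2a22, a further CYP2A gene, went from -0.13, -0.12 and 0.34 to 2.99, 2.66 and 2.19, a difference of 2.58 (SE 0.23, adjusted p = 7.07e-05). All P0 values of these genes lay above all E15.5 values. The CYP2A probes are close in sequence: 28 of 60 bases are shared by a Cyp2a4 and a Cyp2a5 probe, and 1 of 3 Cyp2a4 probes was named Cyp2a5 in the older annotation, so that these genes are not fully separate measurements.

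Among the fatty acid enzymes, Cyp4f39, which makes the omega-hydroxylated fatty acids of skin acylceramides, was at -0.27, 0.12 and 0.39 at E15.5 and at 2.11, 1.97 and 1.4 at P0, a difference of 1.75 (SE 0.24, adjusted p = 0.00096). Cyp4v3, an omega-hydroxylase, rose by 1.29 (SE 0.22, adjusted p = 0.00298) from -1.66, -0.85 and -1.38 to -0.21, 0.15 and 0.04. As means over their probes, Cyp2b9 rose by 0.94, Cyp2b10 by 0.58 and Cyp2b13 by 0.57. A Cyp2b9 probe well above background on 5 of the arrays differed by 1.71, and one above it on 0 arrays by 0.16. For Cyp2b13 the probes gave 1 (above background on 3 arrays) and 0.15 (on 6 arrays). Cyp27a1, a mitochondrial hydroxylase of sterols and vitamin D, rose by 0.65 (SE 0.18, adjusted p = 0.0291), a call that was lost without the doubted arrays (0.69, adjusted p = 0.0501) and without any of 4 single arrays, namely E15.5 replicates 1 and 2 and P0 replicates 1 and 2. Without the doubted arrays 11 genes were called (10 of them the same, beside 19.5% of all features), and the addition was Cyp4b1, at 1.55 (adjusted p = 0.00122). The differences were then 2.5 for Cyp2a22, 1.57 for Cyp4f39, 1.11 for Cyp4v3, 0.77 for Cyp2b9, 0.56 for Cyp2b13 and 0.54 for Cyp2b10. Where none of a class was called, the largest difference was 0.54 for the cholesterol metabolite hydroxylase Cyp39a1.

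The 2 retinoic acid hydroxylases took different courses. Cyp26a1 was at 4.66, 3.29 and 3.16 at E11.5, at 5.06, 3.24 and 3.12 at E15.5, at 1.1, 1.6 and 1.4 at P0 and at 0.33, 0.41 and 1.11 at P7. Its fall between E15.5 and P0 was -2.44 on the log2 scale (SE 0.52, adjusted p = 0.0095), and between E11.5 and P7 -3.09 (SE 0.52, adjusted p = 0.00193), with no overlap between the embryonic and later arrays. Without the doubted arrays these differences were -1.81 (SE 0.37, adjusted p = 0.00945) and -3.36 (SE 0.37, adjusted p = 0.000132). In adult epithelium it was not well above background on any array, at least 1.66-fold lower than at P7 (adjusted p = 0.015). Cyp26b1, the paralog that clears retinoic acid in skin and limb, stayed between -0.29 and 1.04 on all 12 wild-type arrays from E11.5 to P7. In the adult it was at 4.1, 3.79 and 3.41.

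**Figure D3:**
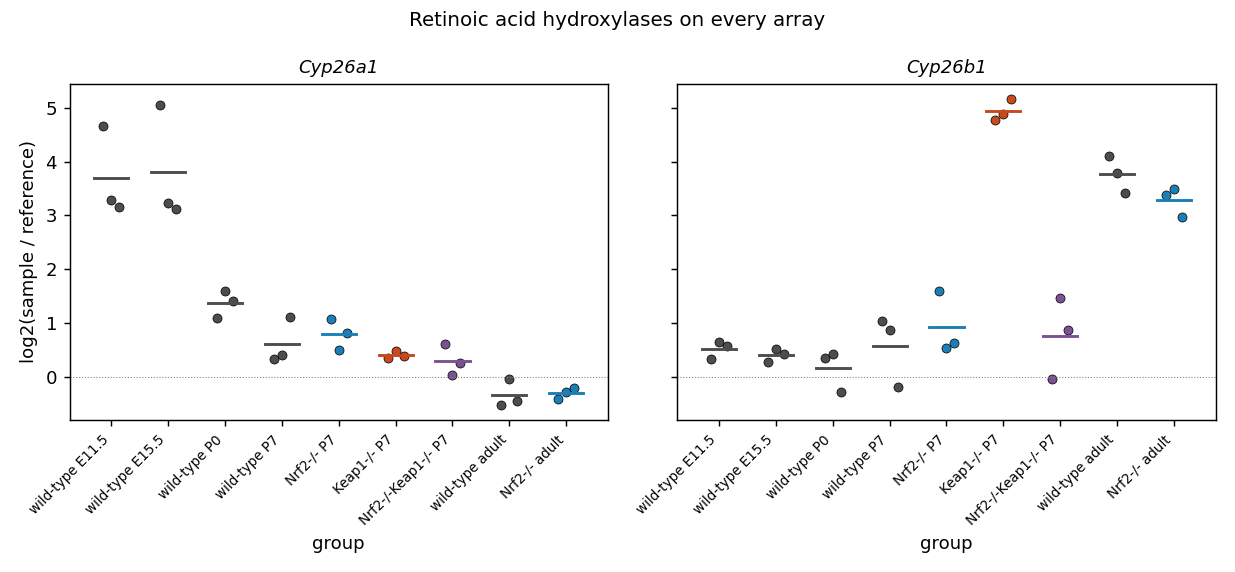
Log2 esophagus to reference ratio of the retinoic acid hydroxylases Cyp26a1 and Cyp26b1 on each of the 27 arrays by group, with points for arrays and bars for group means of 3. Cyp26a1 is highest in the embryo, whereas Cyp26b1 is at 3.41 to 4.1 in the wild-type adult and at 4.78 to 5.17 in Keap1-/- and at most 1.6 in the other P7 groups.

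The partners of the P450 enzymes also changed around birth. Por, which supplies the electrons, was at -1.08, -0.42 and -0.7 at E15.5 and at 1.09, 1.25 and 1.15 at P0, a rise of 1.89 (SE 0.25, adjusted p = 0.000852). In the list of electron transfer partners 3 of 6 rose, the others being Cyb5r3 (0.7) and Fdx1 (0.62), and in heme synthesis 1 of 7 rose (Alad, 0.61). Of 16 tested genes in the list of xenobiotic and lipid receptors with their partners, 5 rose: Vdr (2.3), Ahr (1.15, adjusted p = 0.0115), Nfe2l2 (0.79), Nr1h3 (0.66) and Nr1h2 (0.51). Cyp51, the P450 of cholesterol synthesis whose name falls outside the rule, was at -0.05 (adjusted p = 0.817). Skeletal muscle markers rose in 4 of 6 over the same step, and the lung marker mean was 1.16 to 2.31 at P0 against 0.14 to 1.19 at E15.5. Their part in the P450 differences was not tested.

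From P0 to P7 no P450 gene was called (0 of 56, beside 2.43% of all features), although 10 had an unadjusted p under 0.05. Cyp2a22 came nearest, at 1.26, 1.6 and 1.93 at P7 against 2.99, 2.66 and 2.19 at P0, a difference of -1.01 with an adjusted p of 0.0513, and of -1.01 with an adjusted p of 0.0377 without the doubted embryonic arrays, where it was the 1 gene called (beside 5.58% of all features). Over the whole metaplasia phase, E11.5 to P7, 20 P450 genes rose and 1 fell. Some of those that rose were not well above background on any E11.5 array. They passed the filter through later groups, so their direction was largely set by it. Of 56 genes 21 were called (37.5%, beside 30.2% of all features). Of all features 16.8% were higher and 13.4% lower, and the median difference was 0.69 against -0.01 over all features. By role, 16 of 30 xenobiotic genes rose, with 2 of 16 fatty acid and 2 of 3 vitamin D genes.

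The 10 with the largest differences over this phase were led by genes already named. Cyp2a5 rose by 5.87 (SE 1.2, adjusted p = 0.00509), Cyp3a13 by 5.1, Cyp2a4 by 4.43 and Cyp4f39 by 2.57. Cyp2d26, a liver CYP2D form, rose by 3.5 (SE 0.65, adjusted p = 0.00317), from -0.1, -0.15 and -0.01 to 3.2, 4.46 and 2.57. Cyp2c44, an arachidonate epoxygenase, rose by 1.48, from -0.49, -0.46 and -0.45 to 1.69, 1.14 and 0.21, and Cyp2b9 by 1.35. Cyp2a22 and Cyp2c40 were not well above background on any E11.5 array, and the rise of each to P7 was at least 2.97-fold. Cyp2c29, Cyp2b10 and Cyp2r1 were not above background on any E11.5 array either, and rose by at least 1.92-fold, 1.62-fold and 1.25-fold. The other calls, between 0.36 and 1.25, were Cyp2s1, Cyp2c70, Cyp27a1, Cyp2d9, Cyp2b13, Cyp2d10, Cyp4f13 and Cyp2c37. For Cyp2b13, Cyp2c37 and Cyp2s1 the probes differed in sign, with 1 probe at -0.04, -0.06 and -0.16. The Cyp2b9 probes gave 2.59 and 0.1. Without the doubted arrays 25 were called (19 of them the same, beside 40.6% of all features), and Cyp2f2 gave the largest difference at 7.63 (SE 0.25, adjusted p = 1.32e-07). Cyp2a5 was then higher by 7.2 (SE 0.24, adjusted p = 1.37e-07), Cyp2a4 by 5.18 (SE 0.22, adjusted p = 4.4e-07), Cyp3a13 by 5.24, Cyp2d26 by 3.53, Cyp4f39 by 2.71, Cyp2c44 by 1.49 and Cyp2b9 by 1.42. With all arrays the difference of Cyp2f2 was 5.32 (SE 2.14, adjusted p = 0.0851). From P0 on, Cyp2f2 was between 5.13 and 6.82 on every array of every genotype. The lung and airway markers were mixed. Foxj1 was between -0.28 and 0.06 on the P7 arrays, and Scgb3a2 was at 0.51, 2.77 and 1.16 at wild-type P7. Scgb1a1 was at -0.03, 0.03 and 0.02 at wild-type P7 and at 3.78, 4.16 and 3.51 in the wild-type adult. Sftpb and Nkx2-1 were not above background on any of these wild-type arrays. The part of airway cells in the Cyp2f2 values was not tested.

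Liver markers moved with some of these genes. The mean of 7 liver markers was 0 to 1.49 at E11.5 and 2.38 to 3.43 at P7, with 5 of 7 called higher, and at P0 it was 1.29, 2.83 and 1.83. The middle P0 array was also the highest of its group for the liver forms Cyp2d26 (2.91 against 0.05 and 0.56), Cyp3a41 (3.31 against -0.03 and 0.06) and Cyp4a14 (5.04 against 0.8 and 1.8). In adult epithelium the liver marker mean was 0.08 to 0.57, with 1 or 2 of 7 markers above background. Of these Ahsg was at 2.18, 1.08 and 2.31 and Fgb at -0.05, 0 and 1.23, while Alb was not above background (0.1, -0.06 and 0.25). On the same arrays Cyp2a5 was at 7.35 to 7.81, Cyp2a4 at 5.32 to 5.73 and Cyp2f2 at 5.93 to 6.13. On the adult Nrf2-/- arrays the marker mean was 0.03 to 0.04, with Ahsg at -0.09, -0.05 and 0.08, and Cyp2a5 was at 7.02, 6.85 and 6.91. The part of liver RNA in the P450 differences was not tested.

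The comparison of P7 with adult in wild-type mice asks what changes in the maturation phase, but it also sets whole esophagus against epithelium, so age and tissue cannot be told apart. Adult epithelium carried more of Cyp2b9, Cyp2b10, Cyp2b13, Cyp4b1, Cyp4f39, Cyp26b1, Cyp2s1 and Cyp27a1. It carried less of Cyp2d26, Cyp2d9, Cyp2d12, Cyp3a41, Cyp3a16 and the oxysterol hydroxylase Cyp7b1. Cyp3a11 (-0.02) and Cyp3a44 (-0.03) were not called. Of 56 genes tested, 24 were called (42.9%, beside 43% of all features), 14 higher and 10 lower, where 20% of all features were higher and 23% lower. By role, 8 xenobiotic genes were higher and 6 lower of 31, 4 fatty acid genes higher and 1 lower of 15, and retinoic acid and vitamin D had 1 of each. The largest steroid hormone difference, 0.33 for Cyp17a1, was not called.

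Cyp26b1 rose by 3.2 (SE 0.34, adjusted p = 0.000368), from 1.04, 0.87 and -0.2 to 4.1, 3.79 and 3.41. Cyp4b1, which oxidizes fatty acids and furans in surface epithelia, rose by 2.43 (SE 0.18, adjusted p = 9.52e-05), from 2.37, 3.07 and 2.63 to 5.18, 5.15 and 5.06. Cyp2b10, the classical target of the receptor CAR, rose by 2.31 (SE 0.19, adjusted p = 0.00014), from 0.73, 1.03 and 0.81 to 3.38, 2.76 and 3.36. Its neighbours Cyp2b9 and Cyp2b13 moved the same way: Cyp2b9 rose by 1.74, from 1.13, 1.61 and 1.41 to 3.21, 2.95 and 3.19. Cyp2b13 rose by 1.39, from 0.47, 0.75 and 0.71 to 2.1, 1.83 and 2.16. Adult and P7 values did not overlap for any of these genes. The probes differed in size, at 2.82 and 0.65 for Cyp2b9 and at 2.62 and 0.16 for Cyp2b13. The smaller value of each came from a probe well above background on only 3 of the arrays, the larger from one on 6.

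Cyp2s1, an Ahr-inducible enzyme of surface epithelia, rose by 1.71 (SE 0.21, adjusted p = 0.000752), from 1.34, 1.08 and 0.52 to 2.78, 2.57 and 2.74. One of its probes, well above background on 6 arrays, differed by 3.27, and the other, on 0 arrays, by 0.16. Cyp1a1, the best known Ahr target, was not well above background on any P7 array and at 0.96, 0.84 and 1.42 in the adult, at least 2.89-fold higher (adjusted p = 0.000374). Ahr itself was at 0.05, -0.39 and -0.22 in the adult, a difference of -0.04 (adjusted p = 0.865), and its repressor Ahrr rose by 1.23 (adjusted p = 0.015). Cyp27a1 rose by 1.7 (SE 0.2, adjusted p = 0.000611), from 0.75, 0.66 and 1.16 to 2.78, 2.67 and 2.21. Cyp4f39 rose by 1.45, from 2.59, 2.72 and 2.15 to 3.67, 4.12 and 4.03, and Cyp3a13 by 1.04, from 4.34, 4.77 and 4.28 to 5.57, 5.54 and 5.41. The smaller calls were Cyp2a22 at 0.88, whose groups overlapped (1.26, 1.6 and 1.93 against 2.72, 1.87 and 2.84), Cyp4f13 at 0.52 (-0.41, 0.06 and -0.12 against 0.6, 0.25 and 0.22) and Cyp2j11 at 0.47 (0.24, -0.08 and 0.15 against 0.75, 0.43 and 0.53).

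The intestinal forms Cyp2c65 and Cyp2c66, which act on arachidonic acid, were high in the adult but scattered at P7. Cyp2c65 was at 7.39, 6.85 and 7.22 in the adult and at 6.42, 1.91 and 0.16 at P7, a difference of 4.32 (SE 1.38, adjusted p = 0.0384). Cyp2c66 was at 5.26, 4.94 and 5.11 against 4.92, 0.97 and -0.06, a difference of 3.16 (SE 1.12, adjusted p = 0.0552). The glandular stomach marker mean scattered in step, at 3.59, 1.92 and -0.14 on the same P7 arrays, but was 0.1 to 0.45 in the adult, where both genes were highest. The Cyp2c65 call was kept in 1 of 6 fits that each left out an array, the one without P7 replicate 1, and was otherwise lost (adjusted p of 0.0849 to 0.105), as it was with scan day as a block (4.29, adjusted p = 0.0902). Without P7 replicate 1, which had the highest stomach marker mean, the difference was 6.12 for Cyp2c65 (adjusted p = 0.000244) and 4.65 for Cyp2c66, and 16 genes were called, 13 higher and 3 lower (beside 31.9% of all features).

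Of the 10 genes that were lower in adult epithelium, most are liver forms. Cyp2d26 fell by 3.31 on the log2 scale (SE 0.43, adjusted p = 0.000934), from 3.2, 4.46 and 2.57 to -0.05, -0.04 and 0.37. Cyp2c40 fell by 1.81 (2.2, 2.17 and 0.83 to -0.21, -0.09 and 0.06), Cyp3a41 by 1.67 (0.62, 2.17 and 1.52 to -0.13, -0.12 and -0.45) and Cyp2d9 by 0.75 (0.92, 1.51 and 0.66 to 0.46, 0.27 and 0.1). Not well above background in the adult were Cyp4a14, a target of the receptor Ppara that was at least 2.29-fold lower, Cyp3a16 (at least 1.73-fold), Cyp26a1, Cyp2d12 (at least 1.57-fold) and the vitamin D hydroxylase Cyp2r1 (at least 1.37-fold). At P7 these were at 1.7, 1.91 and 1.6 for Cyp4a14, at 0.39, 1.35 and 1.08 for Cyp3a16, at 0.57, 0.86 and 0.28 for Cyp2d12 and at 0.76, 0.67 and 0.81 for Cyp2r1. All 6 liver markers tested were lower in the adult too, with a marker mean of 2.38 to 3.43 at P7 and 0.08 to 0.57 in the adult, and their part in these differences was not tested. Cyp7b1 fell by 1.18 (SE 0.16, adjusted p = 0.000985), from 4.7, 4.96 and 4.96 to 3.49, 3.66 and 3.94. Skeletal muscle markers, 4.55 to 5.19 at P7 and 0.42 to 1.41 in the adult, and fibroblast markers, 1.44 to 1.67 and -0.38 to -0.05, fell in all 6 and all 5 members.

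In the partner lists the adult difference was mixed. Cyp51 rose by 1.54 (SE 0.13, adjusted p = 0.000146), and the prostanoid P450 enzymes Ptgis and Tbxas1 fell by 1.36 and 0.72. Por differed by 0.3 (adjusted p = 0.38). In electron transfer 3 of 6 rose and 1 fell, in heme synthesis 2 of 7 rose and 1 fell, and in the receptor list 7 of 15 rose and 1 fell, with Ppara (1.82), Vdr (1.8), Nfe2l2 (1.24) and Ahrr the largest rises. Of the 8 Nrf2 reference targets 6 rose, among them Nqo1 by 3.46 (adjusted p = 0.00224).

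The P7 genotypes ask which P450 genes follow Nrf2 when Keap1 no longer restrains it. In Keap1-/- esophagus Cyp26b1 was far above wild-type, Cyp4f39, Cyp2s1, Cyp2b19 and Cyp4f16 were higher by less, and Cyp2a5, Cyp2a4, Cyp2a22, Cyp2f2, Cyp2d26, Cyp2j6 and Cyp2w1 were lower. Of 57 genes tested, 12 were called (21.1%, beside 33.3% of all features), 5 higher and 7 lower, where 15.4% of all features were higher and 18% lower. In the deposited ratios 5 were higher and 15 lower, a count not set here beside the share of all features called there. The xenobiotic class had 2 higher and 6 lower of 30, the fatty acid class 2 higher and 1 lower of 17, and retinoic acid 1 higher. No sterol, vitamin D, steroid or orphan gene was called, and the largest of each were Cyp7b1 at -0.52 (adjusted p = 0.0954), Cyp2r1 at -0.17, Cyp17a1 at 0.19 and Cyp20a1 at -0.15. The Nrf2 reference targets, by contrast, were all higher (8 of 8, from 2.09 to 6.04), Nqo1 at 3.95, 3.99 and 4.18 against 0.45, -1.06 and -1.96 in wild-type.

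Cyp26b1 was at 4.78, 4.89 and 5.17 in Keap1-/-, against 1.04, 0.87 and -0.2 in wild-type, 1.6, 0.53 and 0.63 in Nrf2-/- and -0.05, 1.47 and 0.86 in Nrf2-/-Keap1-/-. No other P7 array came within 3 log2 units of the Keap1-/- arrays. The difference from wild-type was 4.37 (SE 0.43, adjusted p = 3.82e-05) and that from Nrf2-/-Keap1-/- 4.18 (SE 0.43, adjusted p = 5.79e-05). The scanner marked the Cyp26b1 spot as an outlier on all 3 Keap1-/- arrays and on 1 wild-type array, and with such spots left out no difference could be had. It was well above background on all of these arrays, and all 3 gave a like value.

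Cyp4f39 was at 3.57, 3.77 and 4 in Keap1-/- and at 2.59, 2.72 and 2.15 in wild-type, a difference of 1.29 (SE 0.26, adjusted p = 0.00396), and its Keap1-/- level lay within the range of the adult arrays or just under it (3.67 to 4.12). Its neighbour Cyp4f16 was at -0.15, -0.15 and -0.23 against -0.6, -0.57 and -0.54, a difference of 0.39 (SE 0.09, adjusted p = 0.00853). Cyp2s1 was at 1.72, 2.04 and 2.01 against 1.34, 1.08 and 0.52, a difference of 0.94 (SE 0.26, adjusted p = 0.0174). One of its probes was well above background on 6 of 6 arrays and differed by 1.78, the other on 0 of 6 arrays and differed by 0.1. Cyp2s1 was called in 9 of 12 fits without single arrays, and not without Keap1-/- replicate 2 (adjusted p = 0.0594) or 3 (0.0588) or wild-type replicate 3 (0.063). Cyp2b19, the keratinocyte epoxygenase of the CYP2B group, was at 0.61, 0.63 and 0.7 against 0.17, 0.04 and -0.04, a difference of 0.59 (SE 0.09, adjusted p = 0.00062), with 1.04 for a probe well above background on 5 of 6 arrays and 0.14 for one on 0 of 6. With median centring in place of loess its difference was 0.09 (adjusted p = 0.496).

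**Figure D4:**
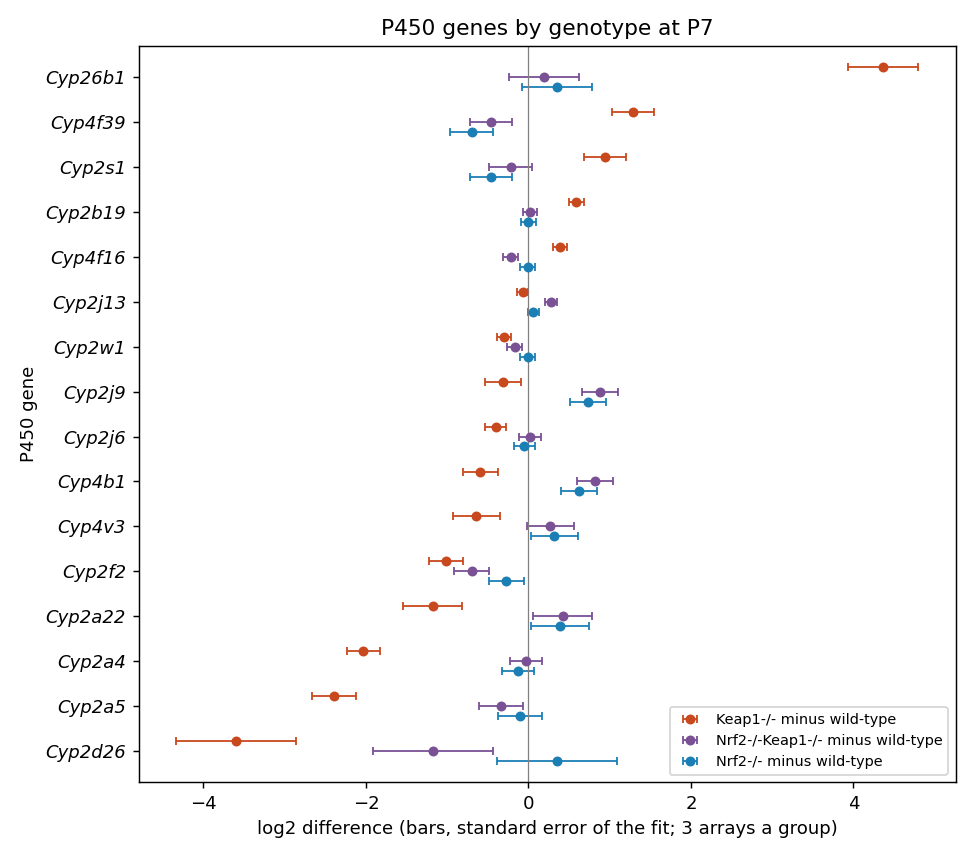
Log2 difference from wild-type at P7 in Nrf2-/-, Keap1-/- and Nrf2-/-Keap1-/- esophagus for the 16 P450 genes called in Keap1-/- against wild-type or against Nrf2-/-Keap1-/-, with points for differences and bars for 1 SE (3 arrays a group). Cyp26b1 stands at 4.37 in Keap1-/- alone, and Cyp2a4 and Cyp2a5 at -2.03 and -2.39, while none of the Nrf2-/- or Nrf2-/-Keap1-/- differences was called.

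Among the genes that were lower, the neighbours Cyp2a4 and Cyp2a5 moved most evenly. Cyp2a5 was at 5.84, 5.1 and 4.89 in Keap1-/- and at 7.4, 8.23 and 7.38 in wild-type, a difference of -2.39 (SE 0.27, adjusted p = 0.000105). Cyp2a4 was at 3.55, 3.05 and 3.19 against 5.05, 5.76 and 5.05, a difference of -2.03 (SE 0.2, adjusted p = 4.03e-05), and its 3 probes gave -2.51, -1.46 and -2.1. Both sat below every other P7 and adult array of any genotype. Cyp2f2, from the same stretch of chromosome 7, was at 5.93, 5.13 and 5.29 against 6.33, 6.82 and 6.25, a difference of -1.01 (SE 0.21, adjusted p = 0.00479). Cyp2a22 was at 0.32, 0.45 and 0.49 against 1.26, 1.6 and 1.93, a difference of -1.18 (SE 0.36, adjusted p = 0.0268), called in 7 of 12 fits without single arrays and least so without wild-type replicate 3 (adjusted p = 0.0879).

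Cyp2d26 was at -0.3, 0.02 and -0.29 in Keap1-/- and at 3.2, 4.46 and 2.57 in wild-type, a difference of -3.6 (SE 0.74, adjusted p = 0.00406). Cyp2j6 was at 1.1, 1.31 and 1.14 against 1.84, 1.29 and 1.62, a difference of -0.4 (SE 0.13, adjusted p = 0.0422) between groups that overlapped, and it was called in 2 of 12 fits without single arrays. Cyp2w1 was not well above background on any Keap1-/- array (-0.13, -0.17 and -0.11) and was at 0.15, 0.12 and 0.24 in wild-type (adjusted p = 0.0204). Liver markers were lower in Keap1-/- as well. Their mean was 0.06 to 0.62 there, with 1 to 3 of 7 markers above background, against 2.38 to 3.43 in wild-type, and Alb, Apoa1, Fgb and Ahsg were called lower. For Cyp2d26 the part of liver RNA was not tested. On the 6 adult arrays, where the liver marker mean was at most 0.57, Cyp2a5 was at 6.85 to 7.81, Cyp2a4 at 4.62 to 5.73 and Cyp2f2 at 5.34 to 6.13. The mean of smooth muscle markers, 2.73 to 3.41 in Keap1-/- and 3.82 to 4.26 in wild-type, and that of fibroblast markers, 0.72 to 1.17 and 1.44 to 1.67, were lower too. Of 5 smooth muscle markers 4 were called lower and 1 higher, and of 5 fibroblast markers 3 were called lower. The squamous marker mean was 4.04 to 4.31 and 4.05 to 4.63. Its 8 markers did not move alike, with 1 called higher and 2 lower and differences from -0.97 to 0.98.

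Cyp2c65 and Cyp2c66 differed widely between arrays of a genotype. Cyp2c65 was at 4.31, 4.37 and 4.4 in Keap1-/- and at 6.42, 1.91 and 0.16 in wild-type, and was not called (1.53). On the Nrf2-/-Keap1-/- arrays it was at 0.16, 5.44 and 0.14. The glandular stomach marker mean was 3.59 and 3.16 on the high wild-type and Nrf2-/-Keap1-/- arrays, and between -0.06 and 0.03 in Keap1-/-. Without these arrays, Cyp2c65 was higher in Keap1-/- than in wild-type by 3.33 (SE 0.41, adjusted p = 0.000745) and Cyp2c66 by 2.51 (SE 0.29, adjusted p = 0.000541), and 13 genes were called, 7 higher and 6 lower, 10 of them as before (beside 25.6% of all features). Against Nrf2-/-Keap1-/- 15 were then called (12 as before, beside 28.1%).

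Against Nrf2-/-Keap1-/-, Keap1-/- differed in 14 of 57 genes (24.6%, beside 33.3% of all features), 5 higher and 9 lower, where 15.1% of all features were higher and 18.2% lower. These comparisons share the Keap1-/- arrays, so that they are not independent. The 5 higher were Cyp26b1, Cyp4f39 at 1.75 (SE 0.26, adjusted p = 0.000707), Cyp2s1 at 1.16, Cyp4f16 at 0.61 and Cyp2b19 at 0.57. Their Nrf2-/-Keap1-/- values were 1.4, 2.42 and 2.28 for Cyp4f39, 0.27, 1.31 and 0.71 for Cyp2s1, -0.85, -0.63 and -0.88 for Cyp4f16 and 0.04, 0.09 and 0.12 for Cyp2b19. None of these overlapped with Keap1-/-.

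The 9 lower included Cyp2d26 at -2.43 (2.28, 2.7 and 1.73 in Nrf2-/-Keap1-/-), Cyp2a5 at -2.05 (7.5, 7.08 and 7.42), Cyp2a4 at -2 (5.42, 5.03 and 5.34) and Cyp2a22 at -1.61 (1.75, 1.38 and 2.93). Cyp2d26 was called in 7 of 12 fits without single arrays, with an adjusted p of up to 0.0807. Fatty acid enzymes made up the other 5. Cyp4b1 was at 1.95, 2.1 and 2.26 in Keap1-/- and at 3.49, 3.35 and 3.7 in Nrf2-/-Keap1-/-, a difference of -1.41 (SE 0.22, adjusted p = 0.000784). Cyp2j9 was at 3.43, 2.97 and 2.94 against 4.45, 4.1 and 4.33, a difference of -1.19 (SE 0.22, adjusted p = 0.00259). Cyp4v3 differed by -0.91 (-0.87, -1.31 and -1.17 against -0.24, -0.4 and 0.03; called in 8 of 12 fits without single arrays), Cyp2j6 by -0.42 (against 1.63, 1.54 and 1.64) and Cyp2j13 by -0.35 (0.21, 0.24 and 0.26 against 0.61, 0.6 and 0.56). Fat markers were at 3.95 to 4.65 in Nrf2-/-Keap1-/- and at 2.06 to 3 in Keap1-/-, and their part in these differences was not tested.

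Genes that lie near each other did not always move alike. Neighbours here are members with gaps of at most 2 megabases between them. On chromosome 7, 10 members are neighbours in RefSeq (build GRCm38.p6): Cyp2s1, Cyp2b10, Cyp2b13, Cyp2b9, Cyp2a4, Cyp2b19, Cyp2g1, Cyp2a5, Cyp2a22 and Cyp2f2. Cyp2g1 was not tested in any comparison. Of the 10, 6 rose from E15.5 to P0 (beside 11.3% of all features), 7 from E11.5 to P7 (beside 16.8%) and 5 from P7 to adult (beside 20%), and none fell. Cyp2a22 and Cyp2b10 were not well above background on any E11.5 array, so a fall from there was hardly measurable. In Keap1-/- against wild-type 2 of the 10, Cyp2s1 and Cyp2b19, were higher (beside 15.4% of all features) and 4, Cyp2a4, Cyp2a5, Cyp2a22 and Cyp2f2, were lower (beside 18%). The probes of Cyp2a4 and Cyp2a5 share sequence, so these counts are not of independent genes. The CYP2B genes between them scattered: Cyp2b10 was at 0.43, 1.8 and 1.94 in Keap1-/- against 0.73, 1.03 and 0.81 in wild-type. Of 5 neighbours on chromosome 17, Cyp4f39, Cyp4f16, Cyp4f15, Cyp4f13 and Cyp21a1, 2 were higher in Keap1-/- (beside 15.4%). Cyp21a1, which lies apart from the CYP4F genes, was not tested in any comparison. Of the 5 CYP2D neighbours on chromosome 15, 3 rose over the metaplasia phase (beside 16.8%) and 3 were lower in the adult than at P7 (beside 23%). Probes of Cyp2d, Cyp3a and Cyp2c paralogs may read each other, although no pair other than Cyp2a4 and Cyp2a5 shared 20 or more bases in a row.

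The test of the difference between the Keap1 effects with and without Nrf2 called 5 of 57 genes (8.77%, beside 15.1% of all features), 3 with a positive and 2 with a negative difference, where 7.16% and 7.95% of all features were called. These were Cyp26b1 at 4.53 (SE 0.6, adjusted p = 0.000824), Cyp4f16 at 0.6, Cyp2b19 at 0.57, Cyp2a4 at -2.13 (SE 0.28, adjusted p = 0.000795) and Cyp2a5 at -2.15 (SE 0.38, adjusted p = 0.00423). Cyp4f39, at 1.04 (adjusted p = 0.0863), was not called. The calls of Cyp2a5 and Cyp2a4 were lost in the deposited ratios (adjusted p = 0.0755 and 0.103) and with all 27 arrays in 1 fit (0.282 and 0.0533), and that of Cyp2b19 with median centring (adjusted p = 0.643). Partner genes followed in part. Ahr was at -1.47, -1.52 and -1.62 in Keap1-/- and at -0.17, 0.09 and -0.36 in wild-type, a difference of -1.39 (SE 0.11, adjusted p = 9.13e-06), and of -1.54 in the interaction (adjusted p = 0.000146). Pgrmc1, a heme-binding partner of P450 enzymes, was higher by 1.82 and Alas1, which begins heme synthesis, by 1.99. Por differed by -0.48 (adjusted p = 0.181) and Cyp51 by 0.54 (adjusted p = 0.0414). In Keap1-/- against wild-type, 3 of 6 electron transfer partners were higher, the heme synthesis list had 2 of 7 higher and 1 lower, and the receptor list had 5 of 17 higher, with Pparg (1.67), Nr1h3 (1.59) and Ppara (1.27) the largest, and 3 lower.

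Loss of Nrf2 alone changed no P450 gene past the threshold at P7 (0 of 57, beside 0.0157% of all features), and 7 had an unadjusted p under 0.05. The largest of these was Cyp4a14, at 2.53, 3.65 and 7.41 in Nrf2-/- and at 1.7, 1.91 and 1.6 in wild-type. Nrf2-/- replicate 3 stood apart for the liver forms. On this array 28 of the 61 genes were higher than on all 11 other P7 arrays, 17 of them by more than 2 log2 units, and the next array led for 6 genes. Cyp3a41 was at 7.43 against at most 2.35 elsewhere, Cyp3a16 at 6.73 against 1.84, Cyp3a44 at 6.36 against 1.69, Cyp2c40 at 5.83 against 2.2 and the ethanol oxidase Cyp2e1 at 5.48 against 1.94. The liver marker mean was 5.07 on this array and 1.97 and 2.94 on the others of its group. Cyp2a5, at 7.42, 7.62 and 7.67, and Cyp2f2, at 5.97, 6.26 and 6.34, differed little between the same 3 arrays.

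**Figure D5:**
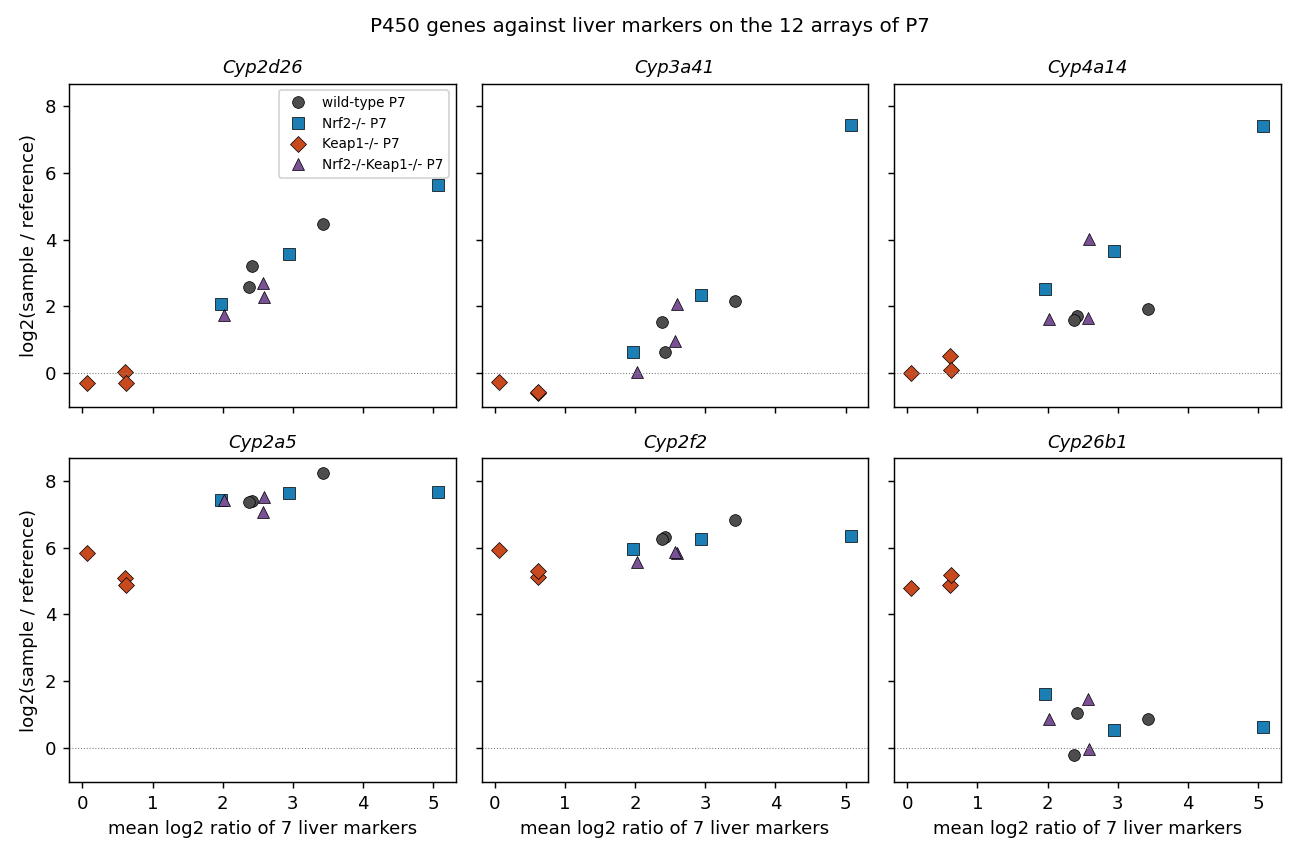
Log2 esophagus to reference ratio of 6 P450 genes against the mean of 7 liver markers on the 12 P7 arrays, 1 point an array and 1 colour a genotype. Cyp2d26, Cyp3a41 and Cyp4a14 are highest on the Nrf2-/- array with a marker mean of 5.07, whereas Cyp2a5, Cyp2f2 and Cyp26b1 are not raised there.

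All P7 genotypes share 1 estimate of spread, so this array enters every P7 test. Without it, no gene was called in Nrf2-/- (0.0105% of all features), and in Keap1-/- against wild-type 22 were called, 5 higher and 17 lower (beside 33.3% of all features), including all 12 of the fit with every array. The 10 additions were all lower. Cyp3a41 differed by -1.91 and Cyp2c44 by -1.27, with 1 and 2 of the 3 Keap1-/- arrays above background, Cyp2d10 by -0.66, Cyp4v3 by -0.64, Cyp4b1 by -0.59 and Cyp2d12 by -0.57. Not above background on any Keap1-/- array were Cyp2c40 (at least 2.83-fold lower), Cyp2c29 (at least 1.89-fold), Cyp3a16 (at least 1.83-fold) and Cyp4f15 (at least 1.13-fold). Liver markers were lower on the same arrays. Against Nrf2-/-Keap1-/- 17 were called without it (14 as before, beside 32.8% of all features), and in the interaction 8 (5 as before, beside 12% of all features).

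In Nrf2-/-Keap1-/- against wild-type no P450 gene was called (0 of 57, beside 0.43% of all features), and 7 had an unadjusted p under 0.05. The lowest adjusted p-values were those of Cyp2j9 at 0.88 (adjusted p = 0.1), Cyp4b1 at 0.82 (0.106), Cyp2j13 at 0.28 (0.11) and Cyp2f2 at -0.7 (0.142). Cyp2j9 was at 4.45, 4.1 and 4.33 against 3.52, 3.18 and 3.57 in wild-type. Fat markers were at 3.95 to 4.65 against 1.18 to 1.84, and their part in this was not tested.

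In adult epithelium loss of Nrf2 again called no P450 gene (0 of 50, beside 0.46% of all features), and 12 had an unadjusted p under 0.05, while 5 of the 8 Nrf2 reference targets fell, Nqo1 by 3.41 on the log2 scale (adjusted p = 0.000529). The nearest members were Cyp2f2, at 5.39, 5.34 and 5.59 in Nrf2-/- and 6.13, 5.93 and 6.13 in wild-type (-0.62, SE 0.12, adjusted p = 0.0935), and Cyp2e1, at 1.31, 1.87 and 1.81 against 0.99, 0.19 and 0.31 (1.16, SE 0.24, adjusted p = 0.0986). Cyp2a5 differed by -0.61 (adjusted p = 0.125), Cyp2b10 by 0.73 (adjusted p = 0.137) and Cyp2a4 by -0.63 (adjusted p = 0.145). The groups did not overlap in any of these, which adds little, since these members were picked by their low p-values. Scan days were shared in part: wild-type replicates 1 and 2 were scanned on 1 day, wild-type replicate 3 with Nrf2-/- replicates 1 and 2 on a different day and Nrf2-/- replicate 3 on another. Wild-type replicates 1 and 2 were also read with an older version of the scanner software than the other adult arrays. With scan day as a block no member was called either (lowest adjusted p of 0.153). Within the shared day, Cyp2f2 was at 5.39 and 5.34 in Nrf2-/- against 6.13, and Cyp2e1 at 1.31 and 1.87 against 0.31. Cyp26b1 was at 3.39, 3.5 and 2.97 against 4.1, 3.79 and 3.41 and overlapped. The 11 members that were not tested for low signal in this comparison included Cyp26a1, Cyp2c40, Cyp3a16 and Cyp4a14. A difference between the Nrf2 effects at P7 and in the adult was called for no member (0 of 58, beside 0.0981% of all features, with 5 at an unadjusted p under 0.05 and a lowest adjusted p of 0.224).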

How the data were processed

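Esophagus RNA was hybridised to two-colour Agilent 4x44k mouse arrays, with the sample in Cy5 and the reference in Cy3. Per the file headers, Agilent Feature Extraction made the deposited spot intensities, the mean and local background pixel values before subtraction. The submitters' processing notes name version 9.1. The headers give version 10.7.3.1, with the newer annotation, for all Keap1-/- and adult Nrf2-/- arrays and wild-type adult replicate 3. For all other arrays they give version 10.5.1.1, with the older annotation. The deposited log10 ratios, which the authors took from the same software after background subtraction and dye normalization, served as an alternative. Here the intensities were corrected by normexp (offset 50) and normalized by loess within each array with limma 3.58.1 (R 4.3.3, statmod 1.5.0). Spots whose local background exceeded 5 times the array median were left out, and spots marked as outliers by the scanner software were kept. Log2 ratios were averaged over the probes of a gene, named by the newer annotation and otherwise by the older one. A feature was tested where a probe was well above background on 3 or more arrays of the fit, with limma's moderated test and Benjamini-Hochberg adjustment over all features tested. The study's methods name SAM, a permutation test, for which 3 against 3 arrays allow few permutations.

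The wild-type arrays from E11.5 to P7, the wild-type P7 and adult arrays, the 12 P7 arrays, the 6 adult arrays, and the wild-type and Nrf2-/- arrays of both ages were each fitted together. Where a gene was not well above background on any array of a group, a bound is given, unless it exceeded the fold of the fitted difference: the brighter group's mean against the dim group's mean of the higher of the lowest well-detected signal and the gene's own. Such bounds come from single channels without a dye swap and are open to dye bias. Alternatives were no background correction, the deposited ratios, median centring, no filter, the brightest probe, outlier-marked spots left out, 1 fit of all 27 arrays, slide, scan day or replicate number as a block, and each array left out in turn. Leaving out the doubted embryonic arrays, or the arrays with the highest stomach markers, was chosen after seeing the data. The members and lists were chosen with earlier results of these data known. Every called member of a comparison is named up to 10, and otherwise the 10 with the largest differences, and the largest difference of a role class without a call. Smaller calls are named in addition. The tests were tested on simulated data. The number of arrays limits the precision.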

Additional observations from a re-analysis of the deposited data

Results flagged for a closer look

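For 5 P450 genes the effect of Keap1 loss differed between mice with and without Nrf2 by limma's interaction test. Cyp26b1 differed by 4.53 (adjusted p = 0.000824), with group means of 4.94 ± 0.2 (SD, n = 3) in Keap1-/- and 0.57 ± 0.67 in wild-type, against 0.76 ± 0.77 in Nrf2-/-Keap1-/- and 0.92 ± 0.59 in Nrf2-/-. Cyp2a4 differed by -2.13, at 3.26 ± 0.26 and 5.29 ± 0.41 against 5.26 ± 0.21 and 5.16 ± 0.05. Cyp2a5 differed by -2.15, at 5.28 ± 0.5 and 7.67 ± 0.48 against 7.33 ± 0.22 and 7.57 ± 0.13. Cyp4f16 differed by 0.6 and Cyp2b19 by 0.57. The calls of Cyp2a5 and Cyp2a4 were lost in the deposited ratios (-1.05, adjusted p = 0.0755, and -0.81, adjusted p = 0.103) and with all 27 arrays in 1 fit (adjusted p = 0.282 and 0.0533), and that of Cyp2b19 was lost with median centring (0.1, adjusted p = 0.643). All of these rest on Keap1-/- arrays that were hybridised and scanned apart from the others.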

How the results depend on the processing

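Counts of P450 genes called moved by more than 1.5 times in few settings. The share of all features called is not given for each setting, so these counts are not set against the background. From E11.5 to E15.5 the count went from 0 to 6 without both doubted embryonic arrays and stayed at 0 without any single array. From P0 to P7 it went from 0 to 1 without background correction (Cyp2a22, adjusted p = 0.0493) and to 1 without both doubted arrays (Cyp2a22), and from 0 to 2 without single arrays, with 2 without P0 replicate 2 (Cyp2c40 and Cyp2d26) or P7 replicate 3 (Cyp2a22 and Cyp2c44). From E11.5 to P7 it went from 21 to 13 with median centring, and from 13 (without E11.5 replicate 1) to 25 (without E15.5 replicate 1, or without both doubted arrays). In Keap1-/- against wild-type it was 12, 20 in the deposited ratios, and 8 (without Keap1-/- replicate 2) to 22 (without Nrf2-/- replicate 3). The interaction count was 5, 3 with all 27 arrays in 1 fit (Cyp26b1, Cyp2b19 and Cyp4f16), 8 without the arrays with the highest stomach markers, and 5 to 8 without single arrays. In Nrf2-/-Keap1-/- against wild-type it went from 0 to 1 with slide as a random block (Cyp2j9, adjusted p = 0.0481). In the adult it went from 0 to 1 with all arrays in 1 fit (Cyp2w1, adjusted p = 0.0199), and from 0 to 1 without single arrays (Cyp2c55, without wild-type replicate 3). The causes were not tested. The labels do not say whether replicate numbers pair the samples, and the arrays do not settle it. Deviations of same-numbered arrays correlated at -0.45 to 0.64 in the wild-type course, with 9 of 18 pairs above 0.1. Among the P7 genotypes they correlated at -0.36 to 0.36, with 7 of 18 pairs above 0.1. With the replicate block the counts were 12 from E15.5 to P0, 21 from E11.5 to P7, 24 from P7 to adult, 12 and 14 for Keap1-/- against wild-type and Nrf2-/-Keap1-/-, 6 for the interaction and 0 for the others.

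Direction was followed only for the called genes with the largest differences of each comparison, and none of these reversed under any setting run. Smaller calls, such as Cyp2b13, Cyp2c37 and Cyp2s1 over the metaplasia phase, were not followed. In the interaction, Cyp2a5 (-1.05, adjusted p = 0.0755) and Cyp2a4 (-0.81, adjusted p = 0.103) were not called in the deposited ratios, and Cyp2b19 (0.1, adjusted p = 0.643) was not called with median centring. Median centring moved the median of all features to 0.11 in Keap1-/- and 0.4 in adult Nrf2-/-, from -0.02 and 0.02. With outlier-marked spots left out, some differences of Cyp26b1, Cyp2a5, Cyp2f2, Cyp2j9 and Cyp2c65 had no value. Scan day as a block could not be fitted within the wild-type course to P7 or the P7 genotypes.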
